A study of Mus musculus with 4 samples.

Results

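The matrix metalloproteinases, their TIMP inhibitors and the related ADAM and ADAMTS proteases were followed across cultured marrow macrophages of diabetic and control mice. Members were all rows whose symbol begins with Mmp, Timp, Adam or Adamts and a digit, which gave 78 of the 22700 rows. They comprise 16 secreted matrix metalloproteinases (MMPs), 7 membrane-bound MMPs, 4 TIMPs, 12 somatic ADAMs, 20 ADAMs known mainly from the testis and epididymis, and 19 ADAMTS genes. Of these 78, 40 reached 20 normalised reads in at least 1 library and were given folds, as were 13642 genes in all.

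The study sequenced ribosome-depleted RNA of marrow from 12-week-old male mice after 7 to 8 days with M-CSF at 10 ng/ml or GM-CSF at 20 ng/ml. Donors were type 2 diabetic db/db mice (genotype label BKS.Cg-m+/+leprdb/J) or their db/+ littermates as controls (BKS.Cg-m+/+leprdb+/J), so both genotypes share the BKS strain label. Each of the 4 groups had 1 library, and no difference between a pair of libraries has a replicate check. Whether a library came from 1 mouse or several is not stated. Values are listed throughout in the order db/+ M-CSF, db/db M-CSF, db/+ GM-CSF and db/db GM-CSF.

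MMPs are zinc proteases that are made as inactive proenzymes and cleave collagens, elastin, proteoglycans and other matrix proteins. TIMPs bind and block their active site, and TIMP3 also blocks ADAM17 and several ADAMTS enzymes. ADAMs are membrane proteins, several of which cut other membrane proteins loose (ADAM17 releases TNF), while ADAMTS enzymes are secreted and act on proteoglycans, procollagens and other matrix proteins. Macrophages are a known source of MMP12, and fibroblastic stroma of marrow cultures is a known source of TIMPs, MMP2 and ADAMTS enzymes.

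The libraries held 25603389 to 28622703 reads, recovered from the deposited values. The 9 measured macrophage markers were all well above the minimum in every library but went both ways with GM-CSF: 1 was at least 2-fold higher and 4 lower in db/+, 2 higher and 4 lower in db/db. Csf1r, the M-CSF receptor, was at 120627, 105159, 33550 and 33103 normalised reads, and Lyz2, lysozyme, at 250024, 242719, 626680.5 and 621787. Stromal markers, 16 genes such as Col1a2 and Sparc, summed to 34082 and 92946 in M-CSF and to 436 and 471 in GM-CSF. Of the 15 that reached 20, 13 had a db/db level 2-fold or more above db/+ in M-CSF (median ratio over all 15 of 2.55). Lum was at 0 in both GM-CSF libraries, and Col3a1 and Dcn were also at 0 in db/db GM-CSF. The 10 neutrophil markers summed to 16192, 16960, 810 and 944, and 7 measured osteoclast markers to 2414, 2865, 62181 and 63839, with Calcr, the calcitonin receptor, at 0 in all 4. The 8 dendritic cell markers summed to 1098, 1243, 57311 and 57487, mostly from Itgax at 775, 921, 56042 and 56259, with Flt3 at 0 in both GM-CSF libraries. For genes at 200 to 1000 reads the squared difference between genotypes, over the variance that counting read pairs gives, was 1.08 for GM-CSF cultures and 7.01 for M-CSF cultures. At 1000 to 10000 reads it was 1.44 and 18.3, and from 10000 reads upward 9.55 and 171. RNA of whole cultures cannot tell fewer cells of a type from less RNA per cell.

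**Figure D1:**
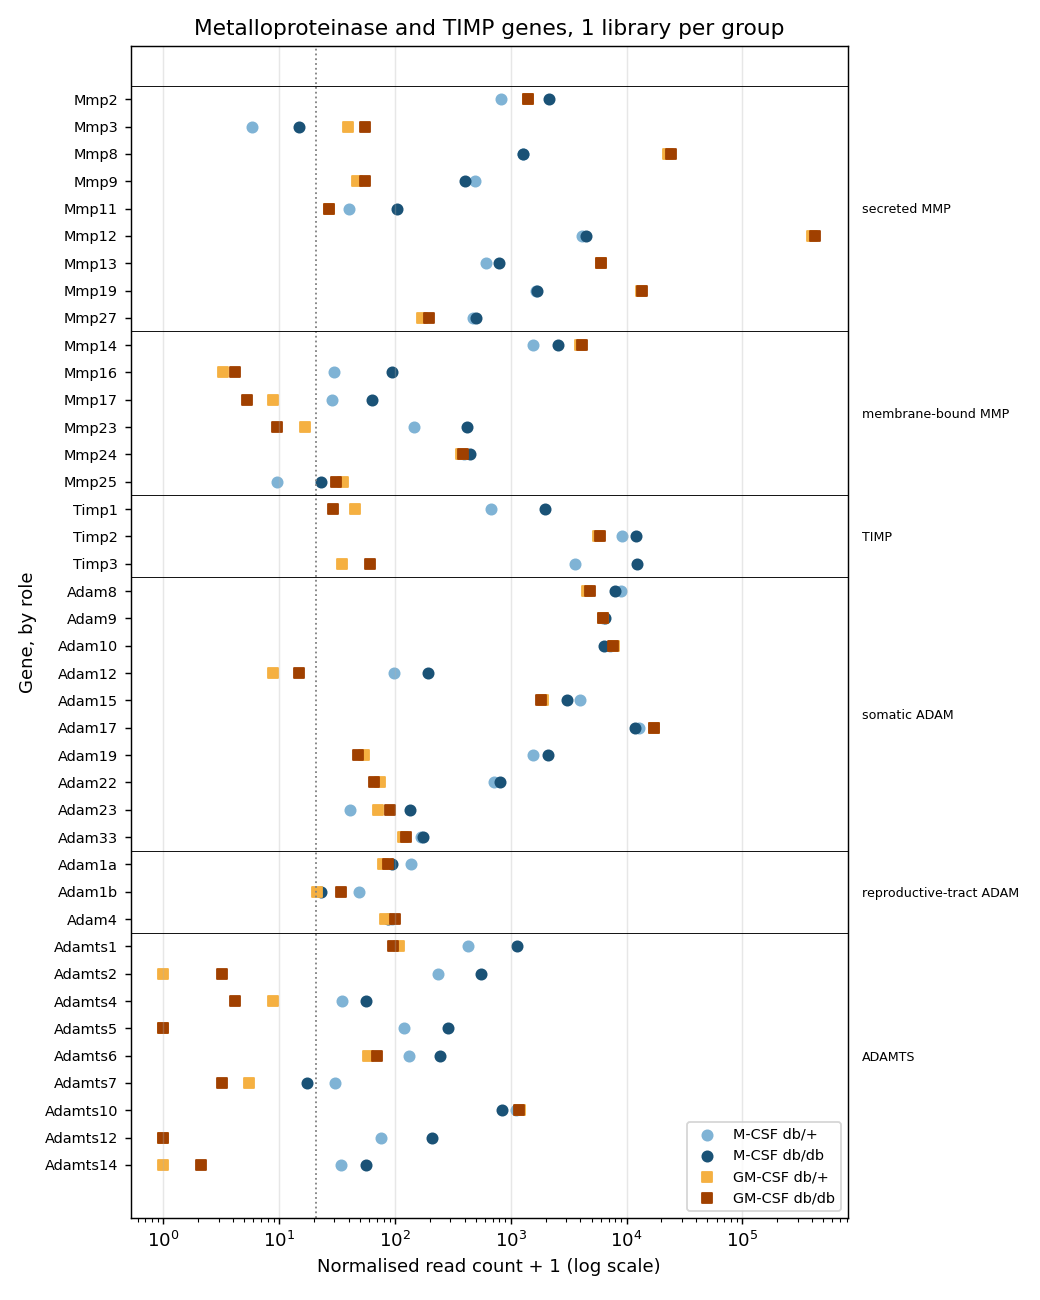
Normalised read count + 1 (log axis) of the 40 members that reached 20 in a library, grouped by role, with 1 point per library and the minimum of 20 as a dotted line. Mmp12 lies at 401959 and 426470.2 in the GM-CSF libraries, while Timp3, Timp1 and most ADAMTS genes lie far to the left there.

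Scaled to exon length, the family was made up of different members in the cultures. Reads per kb of exon (union of exons in the GENCODE M21 annotation, all 78 members matched) were summed over the family, and each role's share was taken. Secreted MMPs held 16.1% and 15.6% of this signal in M-CSF and 90.6% and 91.0% in GM-CSF. TIMPs held 21.4% and 34.9% in M-CSF and 1.225% and 1.196% in GM-CSF. Somatic ADAMs were the largest group in M-CSF, with 56.9% and 42.2%, and had 7.15% and 6.81% in GM-CSF. The leading gene per kb was Adam17 in db/+ M-CSF, Timp2 in db/db M-CSF and Mmp12 in both GM-CSF libraries, where Mmp12 alone made up 78.1% and 78.6% of the family signal. The authors' annotation may give other lengths.

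**Figure D2:**
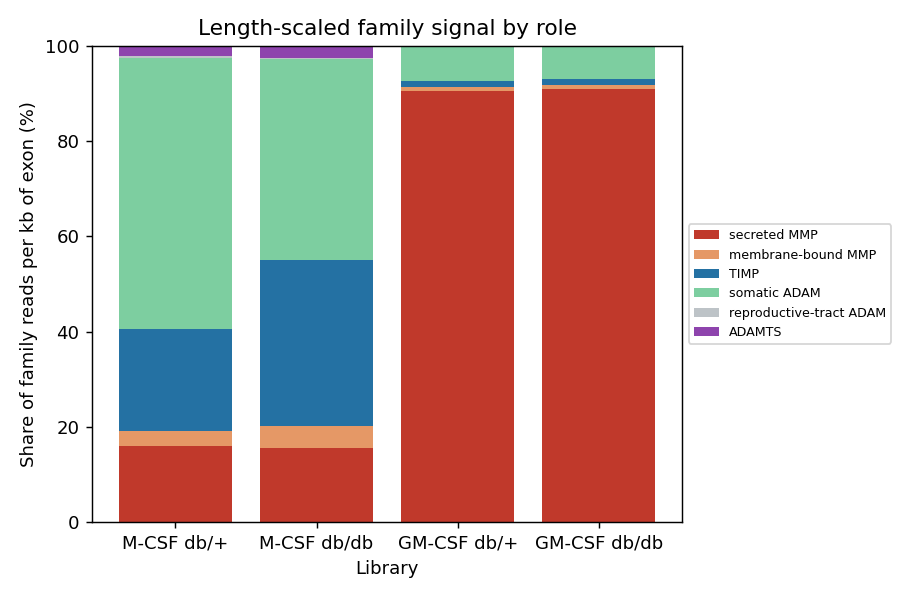
Share of the family's reads per kb of exon (%) held by each role in each library, stacked to 100%. Secreted MMPs take over 90% of the bars of both GM-CSF libraries, and the TIMP band is widest in db/db M-CSF at 34.9%.

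The first comparison asked which members differ between cells grown in GM-CSF and in M-CSF. It was tested with limma as the main effect of culture in an additive model of culture and genotype with 1 residual degree of freedom, so each culture is represented by 1 library of either genotype. On simulated data with equal spread for all genes and no genotype effect, limma made more false calls than this threshold sets, and edgeR did not. Of the 40 members tested, 8 rose and 22 fell with GM-CSF, while 10 did not pass an adjusted p of 0.05. Over all 13642 genes 57.1% passed, of which 29.8% rose and 27.3% fell as shares of all genes. By edgeR 30 members passed, 7 as higher and 23 as lower, against 56.8% of all genes (27.6% higher, 29.2% lower). Scaled to library totals, 6 members rose and 26 fell, and over all genes 2288 rose and 6384 fell, against 4062 and 3725 as deposited. That scaling moved the median log2 fold of all genes from 0.03 to -0.29 in db/+ and from 0.01 to -0.34 in db/db. The members' median log2 fold was -0.88 and that of all genes 0.02. Among the members tested, 10 reached the minimum in M-CSF alone, so those had to differ. They were Adam12, Mmp16, Mmp17, Mmp23, Adamts2, Adamts4, Adamts5, Adamts7, Adamts12 and Adamts14. In GM-CSF alone 1 member, Mmp3, reached the minimum and had to differ too.

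Secreted MMPs rose in 5 of 9 tested members and fell in 3. Mmp12, macrophage elastase, was at 4085, 4491, 401959 and 426470.2 normalised reads. It went from 0.0168% (Wilson interval 0.0161% to 0.0175%) of db/+ reads in M-CSF to 1.32% (1.31% to 1.32%) in GM-CSF. The ratio of GM-CSF to M-CSF was 98.4 in db/+ (95% exact counting interval 94.3 to 103) and 94.96 in db/db (91.3 to 98.8). The 2 cultures do not overlap for this gene, and its main effect on the log2 scale was 6.59 (SE 0.11, limma adjusted p = 4.23e-15). Since PCR copies are not separate molecules, every interval given here covers counting error only.

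Mmp8, a collagenase best known from neutrophil granules, was at 1283, 1272, 22757 and 24136 normalised reads. Its ratio was 17.7 (16.4 to 19.2) in db/+ and 19.0 (17.6 to 20.5) in db/db, with a log2 main effect of 4.19, an SE of 0.08 and a limma adjusted p of 1.62e-14. All 10 neutrophil markers went the other way, at least 2-fold lower in GM-CSF in both genotypes. Mmp13, a collagenase of cartilage and bone, was at 607, 795, 6071 and 5986, a ratio of 10.0 (8.91 to 11.3) in db/+ and 7.53 (6.82 to 8.33) in db/db. Mmp19, a protease that cleaves basement membrane proteins, was at 1638, 1670.4, 13367 and 13619, a ratio of 8.16 (7.60 to 8.78) and 8.15 (7.61 to 8.73). The 5 osteoclast markers that reached 20 were also at least 2-fold higher in GM-CSF in both genotypes. Of the 8 dendritic cell markers 5 were higher and 1 lower in db/+, and 4 higher and 1 lower in db/db. The part of either list in these values was not tested. In the GENCODE annotation 789 exon bases of Mmp19 overlap Tmem198b on the opposite strand. Tmem198b was at 770, 700, 3185 and 3266, and reads of overlapping genes are uncertain here because the strand setting is not given.

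Mmp3, a stromelysin that cleaves proteoglycans and activates other MMPs, was at 4.8, 13.9, 38.1 and 53.8 normalised reads, low in every library but higher in both GM-CSF ones (log2 fold 1.89, SE 0.43, limma adjusted p = 0.00168), a call lost without the db/db GM-CSF library. Mmp9, the gelatinase of neutrophils and osteoclasts, was at 491, 403, 46.0 and 53.8, so it fell with GM-CSF (log2 fold -3.04, SE 0.22, limma adjusted p = 1.83e-08). Lcn2, whose product binds MMP9, fell too, from 824 and 741 to 35.9 and 47.3. Mmp27 was at 473, 499, 169 and 197 and fell by 1.39 on the log2 scale. Mmp11, an MMP that furin activates inside the cell, was at 39.0, 102.8, 25.8 and 25.8 and also passed, with a log2 fold of -1.16. It did not pass without a variance trend or in a model of culture alone. Nor did it pass when either GM-CSF library or the db/db M-CSF library was left out.

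Mmp2, a gelatinase that MMP14 activates, did not pass for culture (limma adjusted p = 0.726). It was at 822, 2129.6, 1404 and 1417 normalised reads. The GM-CSF level lay between the M-CSF levels of the 2 genotypes.

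Of the genes above, Mmp13, Mmp12, Mmp3, Mmp8 and Mmp27 are neighbours on mouse chromosome 9, in a run of 10 protein-coding genes that are all MMPs. In RefSeq gene order these are Mmp13, Mmp12, Mmp1b, Mmp3, Mmp1a, Mmp10, Mmp8, Mmp27, Mmp20 and Mmp7. The culture difference was not shared along the run: Mmp12, Mmp13, Mmp8 and Mmp3 rose, Mmp27 fell between Mmp8 and Mmp20, and Mmp1a, Mmp1b, Mmp7, Mmp10 and Mmp20 stayed under 20 in every library.

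**Figure D3:**
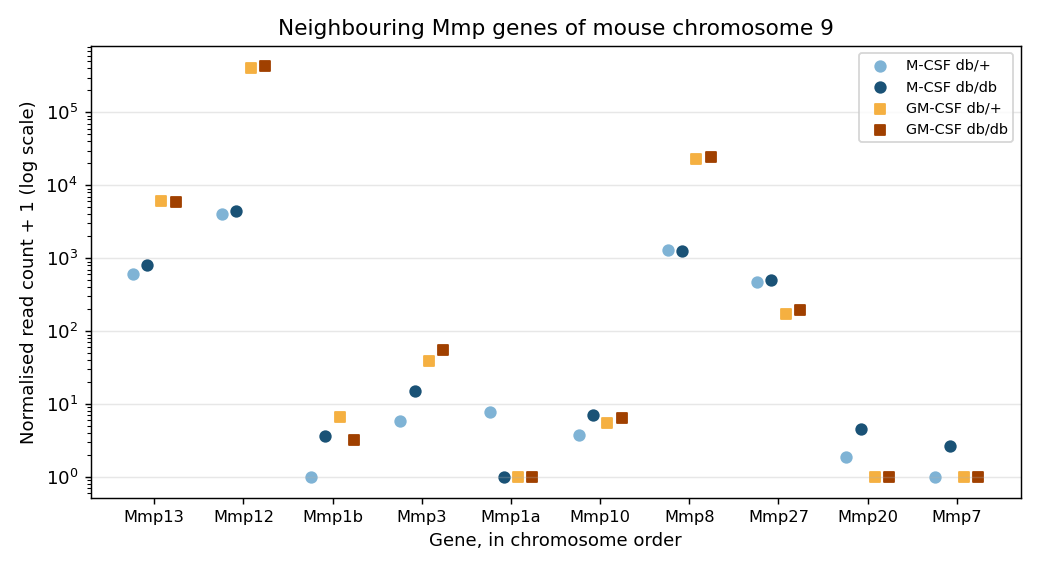
Normalised read count + 1 (log axis) of the 10 neighbouring Mmp genes of mouse chromosome 9, left to right in chromosome order, with 1 point per library. Mmp13, Mmp12, Mmp3 and Mmp8 have the GM-CSF squares above the M-CSF circles, Mmp27 has them below, and the other 5 genes stay under 20.

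The start regions of 4 of these neighbours, Mmp13, Mmp12, Mmp8 and Mmp27, are printed because genes in the same run differ in direction, with Timp3 added as the TIMP that differed most between the cultures. Each is 300 bases, from 250 before to 50 after a RefSeq start on GRCm38.p6 (the deposited files name other builds), and 48 of the 78 members had at least 1 such entry. Capitals mark matches to 4 motifs: TGANTCA, the AP-1 element known from MMP promoters, AGGAAG, an ETS element, and TTCNNNGAA, a STAT5 element, each on both strands, and TATAAA on the gene's strand. None of the 4 motifs lies within another, though matches can overlap in part.
Mmp13, chr9:7272264-7272563, plus strand: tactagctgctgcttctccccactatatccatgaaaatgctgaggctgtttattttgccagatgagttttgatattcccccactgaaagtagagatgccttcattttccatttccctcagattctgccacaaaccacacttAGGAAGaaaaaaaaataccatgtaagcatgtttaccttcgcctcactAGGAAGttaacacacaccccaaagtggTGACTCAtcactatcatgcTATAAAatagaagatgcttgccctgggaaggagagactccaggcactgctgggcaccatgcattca
Mmp12 (upstream start), chr9:7344147-7344446, plus strand: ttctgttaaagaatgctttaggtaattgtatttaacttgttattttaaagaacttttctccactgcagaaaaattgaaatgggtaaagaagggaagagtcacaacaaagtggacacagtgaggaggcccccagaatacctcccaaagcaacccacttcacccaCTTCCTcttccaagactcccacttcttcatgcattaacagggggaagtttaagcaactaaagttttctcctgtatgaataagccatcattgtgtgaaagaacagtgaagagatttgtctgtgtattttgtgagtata
Mmp12 (downstream start), chr9:7347124-7347423, plus strand: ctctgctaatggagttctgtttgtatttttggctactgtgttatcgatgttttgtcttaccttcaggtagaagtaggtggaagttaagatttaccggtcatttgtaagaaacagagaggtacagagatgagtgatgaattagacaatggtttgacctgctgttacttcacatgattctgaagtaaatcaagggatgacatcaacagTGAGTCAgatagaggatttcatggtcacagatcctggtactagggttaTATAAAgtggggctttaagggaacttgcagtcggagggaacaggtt
Mmp8, chr9:7558179-7558478, plus strand: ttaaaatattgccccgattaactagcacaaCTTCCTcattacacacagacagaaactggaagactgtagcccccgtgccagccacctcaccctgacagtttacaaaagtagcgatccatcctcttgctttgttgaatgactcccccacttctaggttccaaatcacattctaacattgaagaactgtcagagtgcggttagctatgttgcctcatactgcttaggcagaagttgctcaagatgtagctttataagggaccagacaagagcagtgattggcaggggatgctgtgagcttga
Mmp27, chr9:7571146-7571445, plus strand: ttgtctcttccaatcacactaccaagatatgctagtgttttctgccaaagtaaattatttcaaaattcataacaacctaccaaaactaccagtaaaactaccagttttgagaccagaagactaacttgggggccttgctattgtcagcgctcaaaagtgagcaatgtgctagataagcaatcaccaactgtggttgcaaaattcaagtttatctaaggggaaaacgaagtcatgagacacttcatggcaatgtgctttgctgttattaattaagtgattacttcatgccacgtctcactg
Timp3, chr10:86300162-86300461, plus strand: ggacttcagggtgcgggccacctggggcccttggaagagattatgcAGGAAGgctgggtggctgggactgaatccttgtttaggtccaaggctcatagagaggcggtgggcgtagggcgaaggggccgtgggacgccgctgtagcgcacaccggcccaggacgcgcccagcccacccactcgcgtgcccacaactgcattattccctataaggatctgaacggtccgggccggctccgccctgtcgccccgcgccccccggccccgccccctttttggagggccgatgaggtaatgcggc
The AP-1 match was TGACTCA in Mmp13 and TGAGTCA in the downstream Mmp12 start, 35 and 44 bases before the start. Mmp8, Mmp27 and Timp3 held no AP-1 match in this window. Of the 10 neighbours, 8 held an AP-1 match and the same number a TATAAA, among them Mmp3, which rose, and Mmp1a, Mmp1b, Mmp7, Mmp10 and Mmp20, which were under 20 in every library. Over all 32851 start regions in the table, 7.81% held the AP-1 motif, 8.32% TATAAA, 35.4% the ETS motif and 8.30% the STAT5 motif. Over the 53 start regions of members these shares were 22.6%, 20.8%, 41.5% and 7.55%, and no neighbour in the run held the STAT5 motif. A match is a description of letters, not a binding site.

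Membrane-bound MMPs were split. Mmp14, which cleaves collagen at the cell surface and activates MMP2, rose, from 1542 and 2556 to 3970.4 and 4142 normalised reads (log2 fold 1.03, SE 0.12, limma adjusted p = 4.76e-06). Mmp16, a related transmembrane enzyme, was at 28.5, 94.1, 2.3 and 3.2. Mmp17, which is held by a lipid anchor and lost its call without the db/db GM-CSF library, was at 27.6, 62.7, 7.9 and 4.3, and Mmp23 at 145, 417, 15.7 and 8.6. These 3 fell, with log2 folds of -2.90, -2.10 and -3.90, each with the GM-CSF values below both M-CSF values. All 3 reached 20 in M-CSF alone, so they could only fall. Mmp25, a leukocyte MMP on a lipid anchor, was at 8.6, 21.8, 34.8 and 30.1 and did not pass (limma adjusted p = 0.0791), nor did Mmp24 at 393, 440.0, 371 and 387 (limma adjusted p = 0.451), which passed as lower when scaled to library totals.

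All 3 TIMPs that reached 20 fell with GM-CSF. Timp3, which stays bound to the matrix, was at 3565, 12275, 33.7 and 60.3 normalised reads. The ratio of GM-CSF to M-CSF was 0.00944 (0.00527 to 0.0156) in db/+ and 0.00491 (0.00326 to 0.00710) in db/db, so M-CSF levels were 106 and 204 times those in GM-CSF. Its log2 main effect was -7.04 (SE 0.18, limma adjusted p = 3.17e-13). Timp1, a soluble inhibitor that also acts as a growth factor, was at 669, 1973, 43.8 and 28.0. The M-CSF values of Timp1 were 15.3 and 70.5 times those in GM-CSF, with a log2 fold of -4.85 (SE 0.34).

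Timp2, which takes part in MMP2 activation, was at 9095, 11996, 5659.5 and 5874 normalised reads and fell by 0.86 on the log2 scale (SE 0.09, limma adjusted p = 2.19e-06). Per kb it was the highest TIMP in every library, at 1526 and 1584 in GM-CSF against 49.3 and 31.5 for Timp1. Timp4 was at 1.9, 2.6, 4.5 and 2.2, at or under the floor of 3 read pairs in every library. Timp1, Timp3 and Timp4 lie within the synapsin genes Syn1, Syn3 and Syn2 on the opposite strand. Syn3 was at 189, 177, 111 and 80.7 and Syn1 at 51.4, 56.6, 22.4 and 26.9. In the GENCODE annotation the exons of Timp1 and Timp3 share no bases with exons of another gene, and Timp4 was not checked. Unspliced reads of the synapsin genes could still not be told apart without a stated strand setting. In these same libraries all 15 stromal markers that reached 20 were at least 2-fold lower in GM-CSF, and their part in the TIMP values was not tested.

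Among the 12 somatic ADAMs, 10 reached 20, of which 1 rose, 5 fell and 4 did not pass. Adam17, which sheds TNF and other surface proteins, was at 12923, 11898, 17181 and 17169.7 normalised reads and rose by a log2 fold of 0.47 (SE 0.09, limma adjusted p = 4.26e-04). Adam17 shares 311 exon bases with Iah1 on the opposite strand, at 739, 690, 1718 and 1703, so some of its reads are uncertain. Adam10, the sheddase of Notch receptors, was at 7182, 6394, 7866 and 7714 and did not pass (limma adjusted p = 0.0564). Both depend on the scaling: with library totals Adam17 did not pass, at pairwise log2 folds of 0.08 in db/+ and 0.17 in db/db, and Adam10 turned to -0.19 and -0.09. Adam9 was at 6234, 6492, 6274 and 6311 and Adam33 at 168, 173, 117 and 125, and neither passed limma. Adam33 passed as lower by edgeR (edgeR adjusted p = 0.0490), without a variance trend and in a model of culture alone, and both passed as lower when scaled to library totals.

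Adam19, a protease that sheds neuregulin, was at 1543, 2098, 52.7 and 47.3 normalised reads, with ratios of GM-CSF to M-CSF of 0.0342 (0.0222 to 0.0523) in db/+ and 0.0226 (0.0141 to 0.0343) in db/db. Its log2 fold of -5.04 (SE 0.17, limma adjusted p = 5.78e-12) was the lowest among ADAMs. Adam12, known from fused muscle cells and mesenchyme, was at 97.0, 193, 7.9 and 14.0, and Adam22, an ADAM without a working active site, at 715, 802, 74.0 and 64.6. Both fell, with log2 folds of -3.18 and -3.36. Adam8, a leukocyte ADAM, was at 8906, 8008, 4570.4 and 4821, and Adam15 at 3941, 3063, 1881 and 1821. Those 2 fell by less, with log2 folds of -0.85 and -0.91. Adam23, also without a working active site, was at 39.9, 135.0, 70.7 and 89.3 and did not pass, with GM-CSF values between the M-CSF values.

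ADAMTS genes fell in 8 of 9 tested members. Of these, Adamts2, Adamts4, Adamts5, Adamts7, Adamts12 and Adamts14 reached 20 in M-CSF alone, so they could only fall. Adamts2, a procollagen N-proteinase, was at 236, 552, 0 and 2.2 normalised reads, at least 35.1-fold lower in db/+ GM-CSF than in db/+ M-CSF when 0 is set to 3 read pairs. In db/db its ratio of GM-CSF to M-CSF was 0.00389, from 2 GM-CSF reads, with a counting interval of 0.000098 to 0.0219. Adamts5, an aggrecanase, was at 119.8, 284, 0 and 0, at least 17.8-fold lower in db/+ and 44.0-fold in db/db. Adamts12, which cleaves cartilage oligomeric matrix protein, was at 75.1, 209, 0 and 0, at least 11.2-fold and 32.4-fold lower. GM-CSF libraries thus held next to no reads of these 3 genes.

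Adamts1, which cleaves versican and aggrecan, was at 429, 1137, 107.7 and 95.8 normalised reads and fell by 2.72 on the log2 scale (SE 0.27, limma adjusted p = 5.62e-07). Adamts4, another aggrecanase, was at 34.2, 54.9, 7.9 and 3.2, Adamts6 at 130.3, 246, 57.2 and 68.9, Adamts7 at 29.5, 16.5, 4.5 and 2.2, and Adamts14 at 33.3, 54.9, 0 and 1.1. Adamts7 shares 122 exon bases with Tbc1d2b on the opposite strand, at 5134, 5282, 2639 and 2540, so its reads are uncertain. Adamts6 lost its call without the db/+ GM-CSF library and Adamts7 without either GM-CSF library. The exception was Adamts10, which binds fibrillin microfibrils, at 1117, 840.0, 1214 and 1186. It passed as higher (log2 fold 0.31, limma adjusted p = 0.0297), but not by edgeR (edgeR adjusted p = 0.0623), with library totals or DESeq2 size factors, without a variance trend, in a model of culture alone, or without the db/db M-CSF library or either GM-CSF library.

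Pair by pair, 7 of the 40 members passed 2-fold upward and 20 downward in GM-CSF for db/+ marrow, against 12.0% and 15.7% of all genes (27.6% in either direction). For db/db marrow 5 were higher and 20 lower, against 11.3% and 15.8% (27.1%). With library totals as the scale the shares over all genes were 8.43% and 20.9% in db/+ and 7.95% and 21.5% in db/db. The db/+ and db/db comparisons share no library. In both, Mmp12, Mmp13, Mmp3, Mmp19 and Mmp8 were at least 2-fold higher, 18 members were at least 2-fold lower, and 0 were past 2-fold in opposite directions. The 18 include the 10 members that reached 20 in M-CSF alone. The sign was the same for 35 of the 40, the others being Mmp2, Adam23, Adam1b, Adam9 and Adam4.

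**Figure D4:**
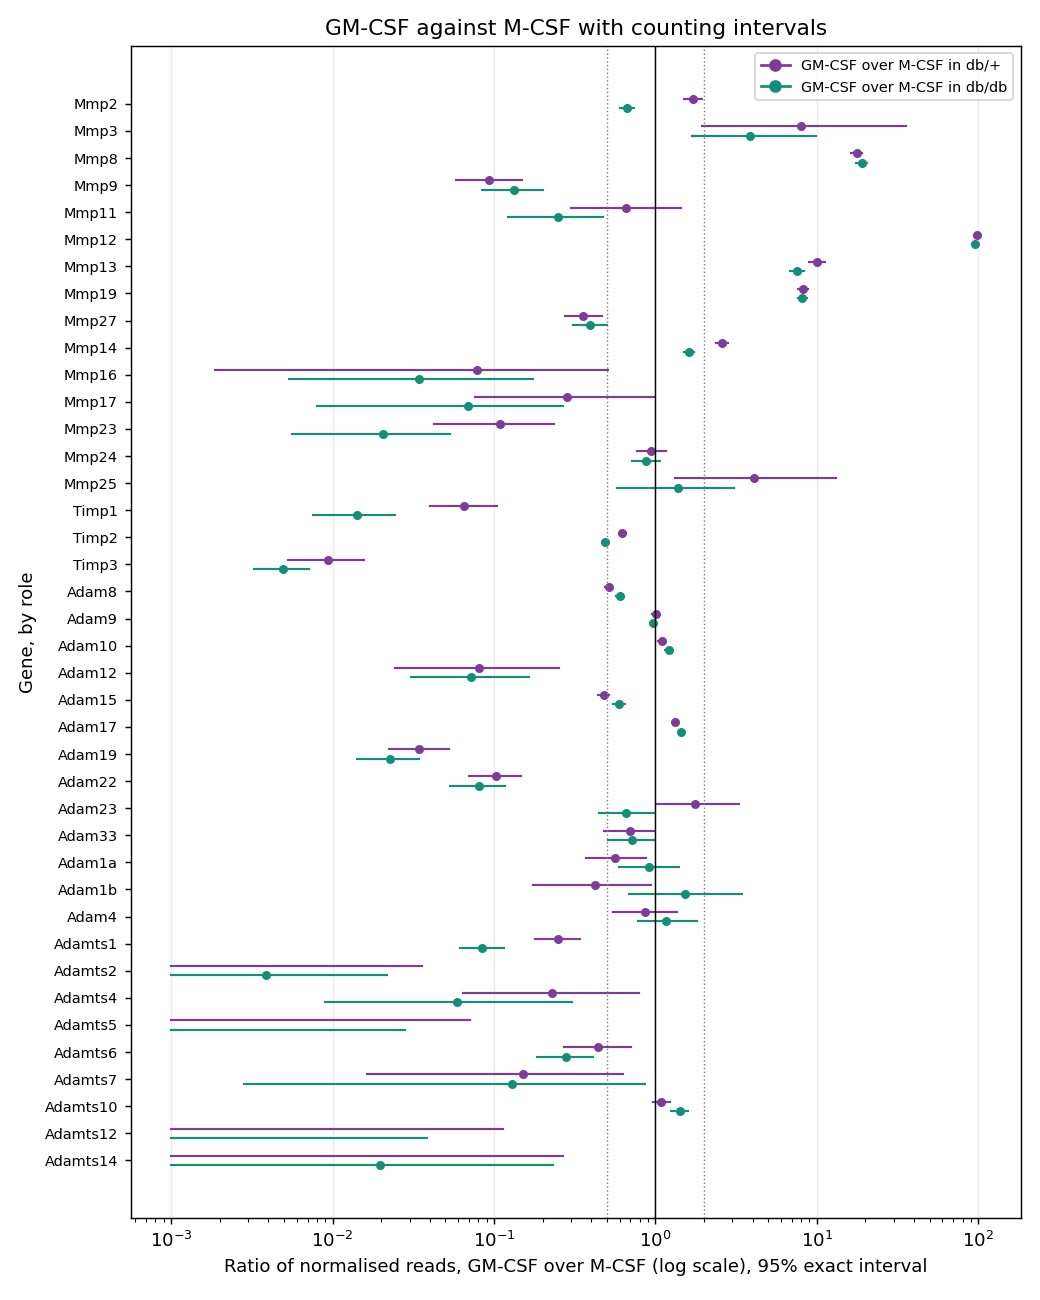
Ratio of normalised reads in GM-CSF over M-CSF (log axis) for the 40 members, in db/+ and db/db marrow, with 95% exact counting intervals drawn from 0.001 to 300 at most and dotted lines at 0.5 and 2. A member at 0 in GM-CSF has an interval and no point. Mmp12 is farthest to the right at 98.4 and 94.96, and Timp3, Timp1 and the ADAMTS genes other than Adamts10 lie to the left.

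Regulators of these proteases outside the family symbols were taken from a list of 34 genes, 27 of which were tested. With GM-CSF 13 rose and 11 fell. Plaur, the receptor of urokinase, which activates MMP proenzymes through plasmin, was at 767, 842, 12626 and 12382 normalised reads. It rose by a log2 fold of 3.95 (SE 0.09, limma adjusted p = 4.43e-14). Serpine2, an inhibitor of serine proteases, was at 268, 935, 28.0 and 28.0, and Pcolce, which enhances procollagen C-proteinases, at 437, 1289.6, 26.9 and 20.4. Both fell, as did Rhbdf1, an inactive rhomboid that carries ADAM17 to the surface (209, 297, 11.2 and 14.0), and the proprotein convertase Pcsk6 (35.2, 76.7, 0 and 0). Adamtsl5, an ADAMTS-like protein without protease activity, rose, from 44.7 and 88.0 to 1225 and 1211.

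The second comparison asked how db/db cells differ from db/+ cells, first in M-CSF. On log2(value + 5), 12 of the 40 members were 2-fold or more higher in db/db and 0 were 2-fold or more lower. Over all genes the shares were 5.05% and 0.777% (5.83% in either direction). By plain ratio Mmp3 (2.93) and Mmp25 (2.54) were also past 2-fold higher and Adam1b (0.458) past 2-fold lower, all at low levels. The 12 were Timp3, Timp1, Mmp2, Mmp11, Mmp16, Mmp17, Mmp23, Adam23, Adamts1, Adamts2, Adamts5 and Adamts12, with ratios from 2.27 to 3.44. Over the same libraries 13 of 15 stromal markers were at least 2-fold higher. Ratios of all 15 ran from 0.478, for Thy1, which was lower in db/db, to 3.08. The part of these markers in the members' values was not tested. The median log2 fold of the 40 members was 0.42, against 0.02 over all genes. Of the 12, 6 were under 20 in both GM-CSF libraries.

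By role, the higher members were 2 of 3 TIMPs, 3 of 6 membrane-bound MMPs, 4 of 9 ADAMTS genes, 2 of 9 secreted MMPs and 1 of 10 somatic ADAMs. Timp3 was at 12275 in db/db against 3565 normalised reads in db/+, a ratio of 3.44 (3.27 to 3.63), and Timp1 at 1973 against 669, a ratio of 2.95 (2.61 to 3.33). Timp2 differed by less, with a ratio of 1.32 (1.27 to 1.37). Adam23 had a ratio of 3.38 (2.08 to 5.80) and Mmp16 one of 3.30 (1.83 to 6.29), both from low levels.

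Mmp2 was at 2129.6 against 822 normalised reads (ratio 2.59, interval 2.32 to 2.90), and its activator Mmp14 at 2556 against 1542 (1.66, 1.52 to 1.81). The aggrecanase Adamts5 was at 284 against 119.8 (2.37, 1.76 to 3.22), the procollagen proteinase Adamts2 at 552 against 236 (2.34, 1.90 to 2.91) and Adamts1 at 1137 against 429 (2.65, 2.27 to 3.09). Each of these values was higher in the db/db library. Among regulators 6 of 27 were at least 2-fold higher and 1 lower, with Serpine2 at 935 against 268 and Pcolce at 1289.6 against 437.

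Of the 5 secreted MMPs that rose with GM-CSF, Mmp12, Mmp8 and Mmp19 lay within a ratio of 0.991 to 1.10 between the genotypes in M-CSF. The others were higher in db/db: Mmp13 at a ratio of 1.31 (1.13 to 1.52) and Mmp3 at 2.93 (0.586 to 14.3), from 16 against 5 reads. Mmp12 was at 4491 in db/db against 4085 normalised reads in db/+ (ratio 1.10, interval 1.04 to 1.16), Mmp8 at 1272 against 1283 (0.991, 0.891 to 1.10) and Mmp19 at 1670.4 against 1638 (1.0198, 0.930 to 1.12). Adam17 had a ratio of 0.921 (0.890 to 0.952), Adam10 of 0.890 (0.850 to 0.932), Adam8 of 0.899 (0.863 to 0.937) and Adam15 of 0.777 (0.729 to 0.829). These ADAM intervals lie below 1, which is a statement on counting error and not on the spread between cultures. In all, of the 28 members under 2-fold, 7 had an interval above 1 and 8 an interval below 1. The lowest log2 folds were -0.97 for Adam1b, at 21.8 against 47.6 (ratio 0.458, interval 0.224 to 0.967), -0.68 for Adamts7 at 16.5 against 29.5 (0.561, 0.232 to 1.34), -0.52 for Adam1a, -0.41 for Adamts10 and -0.36 for Adam15.

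**Figure D5:**
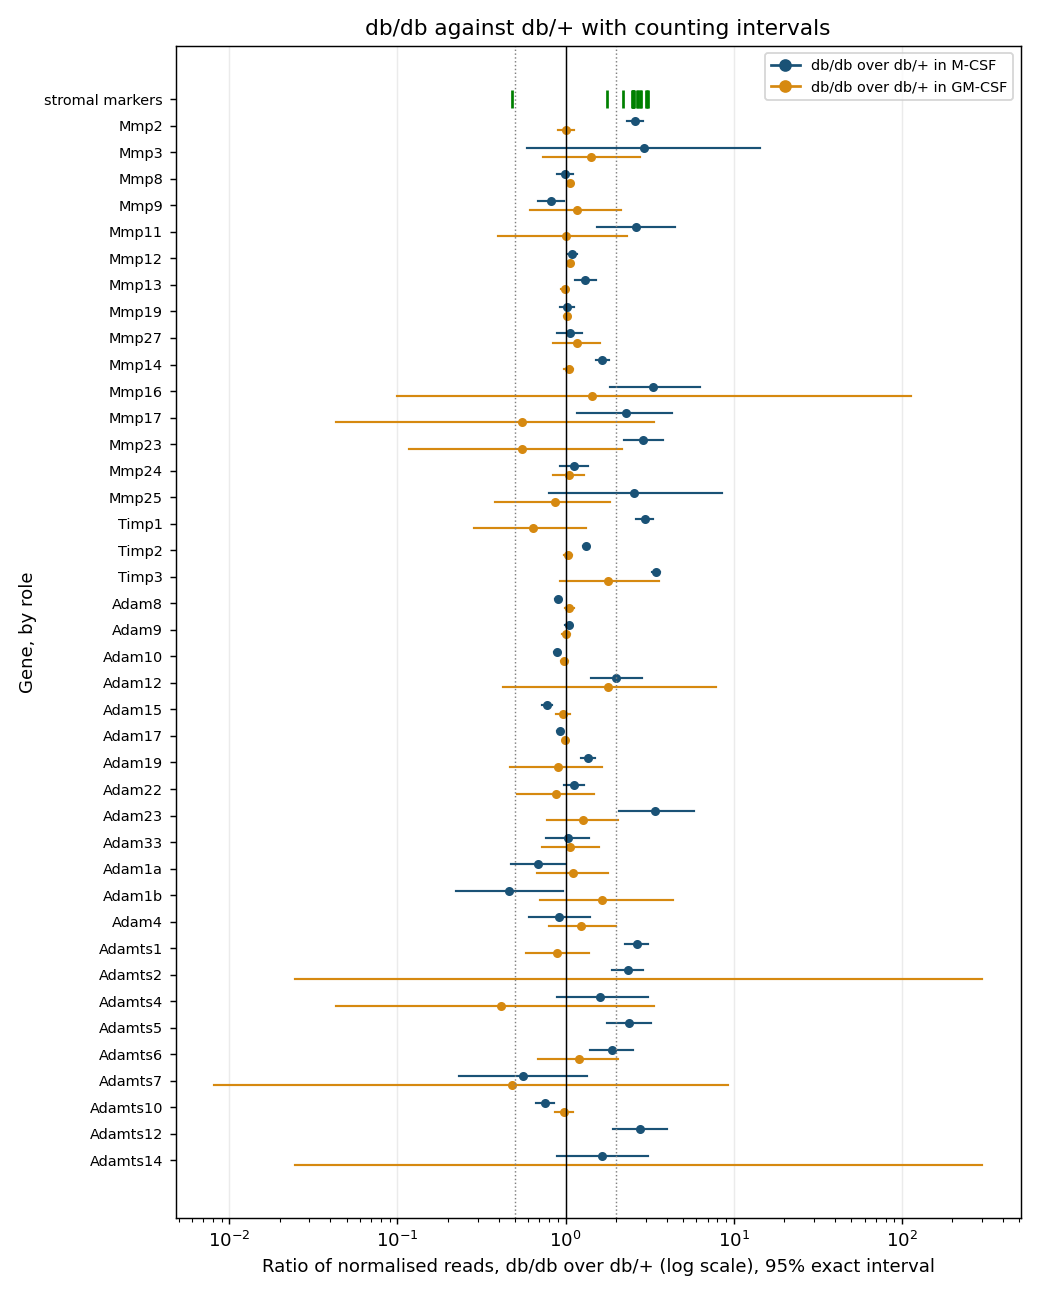
Ratio of normalised reads in db/db over db/+ (log axis) for the 40 members in M-CSF and in GM-CSF, with 95% exact counting intervals cut at 300 and dotted lines at 0.5 and 2. Green ticks in the top row give the M-CSF ratio of each of the 15 stromal markers that reached 20. In M-CSF the 12 members counted as 2-fold higher lie to the right of 2. So do Mmp3 (2.93) and Mmp25 (2.54), which fall short of 2-fold on log2(value + 5). In GM-CSF the well-counted members lie close to 1.

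In GM-CSF 0 of the 40 members were at least 2-fold apart between genotypes, against 0.586% of all genes higher and 0.476% lower (1.06% in all). Of the 30 members whose mean of the pair was 20 or more, the interval of the ratio left out 1 for Mmp12 and Mmp8, at 1.06 (1.05 to 1.07) and 1.06 (1.03 to 1.09). Both genes lie above 10000 reads, where the squared difference in GM-CSF was 9.55 times the counting variance. Their intervals are thus narrower than the spread seen at that level. The median absolute log2 fold was 0.09 over these 30 in GM-CSF and 0.57 over the 38 such members in M-CSF. The highest log2 folds were 0.75 for Timp3, at 60.3 against 33.7 (ratio 1.79, interval 0.924 to 3.61), 0.61 for Adam1b and 0.56 for Adam12. The lowest were -0.65 for Adamts4, -0.61 for Mmp23 and -0.56 for Timp1, at 28.0 against 43.8 (0.639, 0.285 to 1.32). All 6 of these rest on few reads, and their intervals include 1. Timp1 was thus higher in db/db in M-CSF and at 0.639 of the db/+ value in GM-CSF; the difference between the folds was not tested.

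Across both cultures 0 of the 40 members passed limma for genotype, where 0.00733% of all genes passed. An unadjusted limma p under 0.05 was found for 10 of the 40 members and for 603 of the 13642 genes. Timp3 was nearest, at a log2 fold of 1.27 (SE 0.18, limma adjusted p = 0.0542), higher in db/db in both cultures. By edgeR on the recovered reads 1 member passed, again Timp3 (edgeR adjusted p = 1.23e-04), where 0.755% of all genes passed (0.740% higher, 0.0147% lower). An unadjusted edgeR p under 0.05 was found for 15 members and for 826 of the 13642 genes. The next members by limma were Mmp2, Mmp14 and Adam23, with log2 folds of 0.69, 0.39 and 0.98 and an adjusted p of 0.888 each. In this model a genotype fold seen in 1 culture only adds to the error. Mmp2, for example, had a ratio of 2.59 in M-CSF and 1.01 in GM-CSF.

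The other 38 members stayed under 20 in every library, and they include all but 3 of the 20 ADAMs of the reproductive tract. Of those 20 ADAMs 17 had reads in db/+ M-CSF, 14 in db/db M-CSF, 7 in db/+ GM-CSF and 8 in db/db GM-CSF. Adam3, a sperm surface protein, was at 15.2, 5.2, 0 and 1.1 normalised reads, and Adam21 at 11.4, 3.5, 2.3 and 0. Olfactory receptor genes were also detected more often in M-CSF: 526, 331, 114 and 96 of 1123 had reads. The part of this low-level signal in values under 20 was not tested. The 3 reproductive-tract ADAMs that reached 20 were Adam1a at 137, 94.1, 77.4 and 86.1, Adam1b at 47.6, 21.8, 20.2 and 33.4, and Adam4 at 93.2, 85.4, 80.8 and 100.1. None of the 3 passed limma for culture or genotype, except Adam1a as lower with GM-CSF when scaled to library totals. Adam1a shares 1805 exon bases with Mapkapk5 on the same strand, at 899 to 1012 normalised reads, so its reads are uncertain.

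Members under the minimum also include genes known from other tissues. Mmp7, the epithelial matrilysin, was at 0, 1.7, 0 and 0, and Mmp20, enamelysin of teeth, at 0.9, 3.5, 0 and 0 normalised reads. Adamts13, which cuts von Willebrand factor, was at 15.2, 11.3, 11.2 and 18.3, Adamts9 at 12.4, 17.4, 0 and 0, and Adam28, a lymphocyte ADAM, at 4.8, 0, 0 and 0. Values at or under the floor of 3 read pairs (5.23 to 6.73 normalised reads) were not distinguished from 0 at this depth.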

How the data were processed

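RNA was measured in 4 libraries of 1 sample each. Each deposited file gives a normalised signal, which is a read count that the authors scaled by 1 factor per library (TMM by the file names). The submitters' processing notes list TopHat 1.2.0, edgeR and the builds mm8 and mm9, with no role for either build. Counting tool, annotation and strand setting: not given in the sources used here. Whole reads were recovered by dividing by the value of 1 read (0.951, 0.871, 1.12 and 1.08): within a tolerance of 0.1, 99.8% to 99.9% of values came out whole. Even counts were commoner than odd, so intervals used read pairs (exact conditional binomial, 95%).

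Log2 folds were taken on log2(value + 5), which understates low genes, for genes reaching 20 in a library. Main effects were tested with limma 3.58.1 (eBayes with trend, two-sided, Benjamini-Hochberg over 13642 genes, prior of 12.9 degrees of freedom), since the files hold normalised values, and with edgeR 4.0.16 (quasi-likelihood) as an alternative, which called 7746 genes for culture. Both were tested on simulated data, where limma made more false calls than its threshold sets and edgeR did not. Those data had the same relative spread for all genes and no genotype effect, so the edgeR outcome need not hold for these libraries. Nothing says that libraries are separate cultures, and no group has a replicate library. The p-values therefore do not measure the spread between libraries of a group. The error in limma rests on how the culture fold differs between genotypes, moderated by eBayes toward a trend over all tested genes.

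The 34 members named with all values are every TIMP, Adam10, Adam17 and members at least 2-fold apart in a comparison with an interval that leaves out 1. Full statistics went to the 3 highest and lowest folds per comparison, and the regulators named are from the 8 with the largest culture folds, a limit set with values known; 1 of them is not reported here. Other members named were chosen after their values were seen. Members and lists were chosen with earlier results of these data known.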

Additional observations from a re-analysis of the deposited data

Results flagged for a closer look

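Mmp2 and Adam23 were on opposite sides between the genotypes in the culture comparison. Mmp2 had a ratio of GM-CSF to M-CSF of 1.71 in db/+ (interval 1.51 to 1.94) and of 0.665 in db/db (0.605 to 0.733). Adam23 had 1.77 in db/+ (1.005 to 3.28) and 0.661 in db/db (0.446 to 0.980). In both genes the GM-CSF libraries were close to each other and the db/db M-CSF library was the highest of the 4. The difference between the genotypes was not tested, since each group has 1 library.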

How the results depend on the processing

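No paired analysis was possible because each group has 1 library and the labels give no replicate numbers. Of the values of single members under the alternatives, 715 stayed within the counting interval and 33 did not. These 33 include the values of Adamts5 and Adamts12 for genotype in GM-CSF. Both genes had 0 reads in both GM-CSF libraries, so there was no interval to stay within. Among all these values the sign turned for 6, of which 0 were past 2-fold. With library totals these were Adam10 for culture in both genotypes and Mmp8 for genotype in M-CSF. With low libraries set to 3 read pairs they were Adamts2, Mmp16 and Adamts14 for genotype in GM-CSF. Members at least 2-fold lower in db/db M-CSF numbered 0, and 1 with a pseudocount of 1, 3 with no level minimum and 1 with libraries under 3 read pairs set to 3 read pairs. In GM-CSF the genotype count of 0 became 3 (2 higher, 1 lower) with a pseudocount of 1 and 1 (lower) with no minimum. For culture in db/+ the 20 lower members became 13 at a minimum of 200 and 33 with no minimum, where the total went from 27 to 41, and in db/db the 20 became 13 at a minimum of 200. The 30 members past limma for culture became 0 of 78 with no level minimum (32 at an unadjusted p under 0.05), and 25 to 32 when a library was left out with a model of culture alone. For genotype, Timp3 alone passed with a pseudocount of 1 (1 member, adjusted p = 0.0320), at a minimum of 200 (1 member, 2.15e-04) and by edgeR (1 member), and 0 members passed with any library left out (0 to 0); over these alternatives its adjusted p ran from 1.23e-04 to 1. The cause was not tested. Depth limits members under 20 reads.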
